A study of Homo sapiens with 12 samples.

Results

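Ribosome biogenesis and RNA polymerase I genes were followed as a set of 38 genes. They were chosen by name, with earlier results of these data known, from the 64253 entries of an RNA sequencing table of H1299 cells. All 38 were measured in every library and all 38 were among the 20244 genes expressed highly enough to be tested. H1299 is an established human line of non-small cell lung cancer, and all cells were grown as spheroids. There were 4 groups of 3 libraries: PRKCI_KD, with PRKCI silenced; NT1, its non-targeting control; SOX2_KD, with SOX2 silenced; and NT2, the control of SOX2_KD. Silencing was by lentiviral short hairpin RNA, PRKCI encodes the atypical protein kinase C iota, and SOX2 encodes a stem cell transcription factor. The labels give neither the number of hairpins per target nor the origin of the replicates, so an effect of a hairpin apart from its target cannot be told apart, and the p-values measure the spread between libraries that may be technical.

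Ribosomes are assembled in the nucleolus. RNA polymerase I (Pol I) transcribes the long precursor of the ribosomal RNAs, small nucleolar ribonucleoproteins (snoRNPs) guide its chemical modification, and separate sets of assembly factors then carry the precursors of the small and the large ribosomal subunit to maturity. Growing cancer cells make many ribosomes, and the transcription factor MYC, which binds the sequence CACGTG, is a textbook activator of many of these genes. By role, 6 members were Pol I subunits or initiation factors, 6 were snoRNP proteins or their assembly proteins, 11 acted on the small subunit, 11 on the large subunit, and 4 were multifunctional nucleolar proteins.

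The libraries held 77.1 to 124.3 M reads each, recovered from the deposited values, and a member had between 574 and 148720 reads in a library. Expression is given in RPKM, reads scaled to the length of the gene and the size of the library. The targeted genes were low in their own knockdowns: PRKCI had 2.43, 2.58 and 2.49 RPKM in PRKCI_KD, against 13.8, 14.3 and 16.4 RPKM in NT1, and SOX2 had 0.523, 0.582 and 0.588 RPKM in SOX2_KD, against 1.41, 1.48 and 1.55 RPKM in NT2. SOX2 was also lower in the other knockdown, at 2.02 RPKM in PRKCI_KD and 3.01 RPKM in NT1. Of the epithelial markers, the keratins KRT8 and KRT18 averaged 36.3 to 135.5 RPKM over the groups, while EPCAM and CDH1 were near 0. The immune markers PTPRC, CD3E and CD14, the endothelial markers PECAM1, CDH5 and VWF and the fibroblast markers COL1A2, DCN and LUM averaged under 0.1 RPKM in every group. The fibroblast marker COL1A1 averaged up to 0.883 RPKM. The immune marker CD68, a lysosomal protein that is also made outside the immune system, averaged 33.3 RPKM in PRKCI_KD, 23.4 RPKM in SOX2_KD and 18.5 RPKM in NT2, with NT1 between the knockdowns, and its part in the results was not tested. PRKCI_KD and NT1 shared lane 8 of a flow cell, and SOX2_KD and NT2 shared lane 7 of another, so the flow cell and the pair of groups cannot be told apart.

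Many members carried the E-box CACGTG beside the start of the gene. Promoter windows of 300 bases, from 250 before the start to 50 after it, were available for 31 members (RefSeq, GRCh38.p14), and 14 of these (45.2%) contained CACGTG, against 12.6% of the windows of 10323 tested genes and 8.8% of those of 27305 genes. CACGTG is its own reverse complement, so both strands were searched at once. The sites lay between 31 bases before and 36 bases after the start: 10 members (32.3%) had the site in the 50 bases after it, where 1.5% of the tested genes had one, and 3 members (9.7%) had it in the 250 bases before, where 11.2% of the tested genes had one. The site of RRP9 spanned the start. The window was divided at the start after the positions had been seen. Other promoter letters were found at shares nearer to those of all tested genes: GGGCGG was in 74.2% of their windows and 76.2% of those of tested genes, CCAAT in 38.7% and 43.0%, and CCGGAA in 45.2% and 33.8%, each on either strand. The windows around 10 of the sites are printed because these members, which share the same letters at nearly the same place, include genes that rose, genes that fell and genes that were not called after PRKCI knockdown. Each line holds 30 bases of the gene's strand, 5′ to 3′, with CACGTG in capitals.
UTP20: cttttttccgtcCACGTGacccactcaggc
BYSL: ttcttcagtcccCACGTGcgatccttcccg
MYBBP1A: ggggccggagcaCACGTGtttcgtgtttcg
NOP2: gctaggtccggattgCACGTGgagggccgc
RCL1: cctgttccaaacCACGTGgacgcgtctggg
PES1: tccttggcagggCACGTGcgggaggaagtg
GNL2: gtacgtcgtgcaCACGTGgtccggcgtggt
GNL3: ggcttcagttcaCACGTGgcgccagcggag
FBL: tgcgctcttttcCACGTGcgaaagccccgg
DDX21: ggccgggtgtccCACGTGgtccccggcgac

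On GRCh38.p14 the stretch of UTP20 lies at chr12:101280083-101280112 on the plus strand, that of GNL3 at chr3:52686026-52686055 on the plus strand, and that of MYBBP1A at chr17:4555340-4555369 on the minus strand. Those of GNL2, at chr1:37595917-37595946, and NOP2, at chr12:6568242-6568271, are on the minus strand. A match of letters is a description of the window and not of binding.

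**Figure D1:**
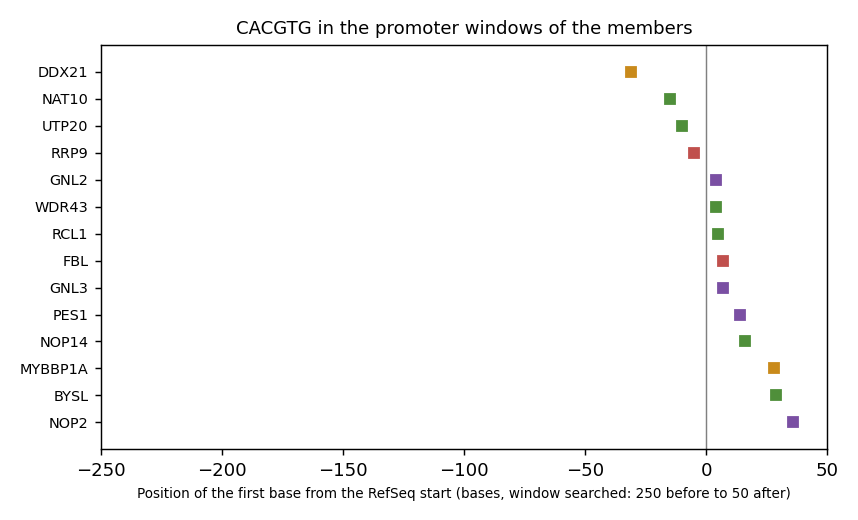
Position of CACGTG in the promoter windows of the 14 members that held it, in bases from the RefSeq start, with a point per site coloured by role (blue, Pol I; red, snoRNP; green, small subunit; purple, large subunit; orange, multifunctional). The searched window runs from 250 bases before to 50 after the start, and all 14 sites lie between 31 before and 36 after it.

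The first comparison asked how the set responded to PRKCI knockdown. Of the 38 members, 16 fell and 8 rose in PRKCI_KD against NT1 at an adjusted p under 0.05 (limma-trend, adjusted over all 20244 genes), and 14 were not called. This was 42.1% lower and 21.1% higher, beside 26.9% lower and 18.2% higher among all genes tested, of which 45.1% were called in either direction. The median log2 fold change was -0.10 over the members and -0.04 over all genes, and no member changed 2-fold on the log2(RPKM + 1) scale. The lowest values belonged to UTP20 and POLR1A and the highest to GNL3 and NPM1. Calls in both directions were also found among all genes tested, and the share of higher members was near that of all genes. RPKM are relative to each library, so a change in the RNA content of all cells, or in the share of cells that express a gene, cannot be told apart from a change per cell. Errors of log2 fold changes are standard errors throughout, and those of RPKM means are SDs. By role, 3 Pol I members were lower and 1 higher, 2 snoRNP members lower and 0 higher, and 5 small subunit members lower and 1 higher. Of the 4 multifunctional members, 2 were lower and 1 higher. Of all 24 members called, 16 were lower. Among all genes, 5443 of the 9137 called were lower. The large subunit role held 5 higher and 4 lower members, but of 50 other large subunit factors 20 fell and 5 rose.

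Among the Pol I genes, POLR1A fell most. POLR1A encodes the largest, catalytic subunit of the polymerase, and it had 5.10, 4.94 and 4.94 RPKM in PRKCI_KD, against 9.37, 9.15 and 9.34 RPKM in NT1. All 3 knockdown libraries were well below the controls, with a ratio of mean RPKM of 0.538 and a log2 fold change of -0.78 ± 0.04 (adjusted p = 1.18e-07). UBTF, the factor that binds the ribosomal DNA and keeps it open for Pol I, had 24.0, 22.9 and 22.4 RPKM in PRKCI_KD, against 31.6, 31.9 and 29.6 RPKM in NT1. Its groups did not overlap either, and the log2 fold change was -0.41 ± 0.05 (adjusted p = 0.000111). The third gene that fell was POLR1E, a Pol I subunit, at 11.8 ± 0.541 RPKM in PRKCI_KD and 13.3 ± 0.289 RPKM in NT1 (SD, n = 3 each; log2 fold change -0.16, adjusted p = 0.0104). Its adjusted p was 0.0581 with quantile normalization and 0.0515 when the 6 libraries of the pair were fitted alone.

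Other parts of the Pol I machinery did not follow POLR1A. POLR1C, a subunit shared by Pol I and RNA polymerase III, was the only Pol I member that rose, with 10.0, 10.5 and 11.0 RPKM in PRKCI_KD, against 8.31, 8.10 and 8.78 RPKM in NT1. Every knockdown library was above every control, and the log2 fold change was 0.29 ± 0.05 (adjusted p = 0.000959). In the GENCODE v29 annotation, exons of POLR1C overlap those of genes on the other strand, and the library kit does not mark strand. Reads of such overlaps cannot be told apart. The length recovered for POLR1C was 2868 bases, against 5550 exonic bases in that annotation, so the overlaps may lie outside the counted part. POLR1B, the second catalytic subunit, had nearly equal means of 8.57 ± 0.0956 RPKM in PRKCI_KD and 8.68 ± 0.845 RPKM in NT1 (SD, n = 3 each; adjusted p = 0.897). RRN3, the initiation factor that recruits Pol I to its promoter, had 9.67, 10.7 and 11.1 RPKM in PRKCI_KD, against 8.78, 8.93 and 10.3 RPKM in NT1. Its groups overlapped and it was not called (log2 fold change 0.15 ± 0.08, adjusted p = 0.147), although it passed without NT1 replicate 3 (0.0444) and with quantile normalization (0.0465).

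Of the snoRNP genes, both scaffold genes of the box C/D particles fell. NOP56, a core protein of the box C/D particles that guide methylation of ribosomal RNA, had 13.5, 14.1 and 13.5 RPKM in PRKCI_KD, against 18.4, 18.4 and 20.9 RPKM in NT1. NOP58, the other core scaffold of the same particles, had 15.3, 16.8 and 17.1 RPKM in PRKCI_KD, against 18.9, 19.8 and 24.2 RPKM in NT1. Both fell without overlap between the groups, NOP56 with a log2 fold change of -0.46 ± 0.05 (adjusted p = 5.01e-05) and NOP58 with -0.33 ± 0.09 (adjusted p = 0.0107). FBL, the methyltransferase of those particles, had 97.3, 113.9 and 123.7 RPKM in PRKCI_KD, against 112.4, 113.0 and 135.4 RPKM in NT1, and the groups overlapped (adjusted p = 0.381). DKC1, the pseudouridine synthase of the box H/ACA particles, had 20.0, 21.3 and 21.5 RPKM in PRKCI_KD, against 21.1, 20.5 and 24.1 RPKM in NT1, again with overlap (adjusted p = 0.437). Neither NOLC1, a chaperone of snoRNPs, nor RRP9, a protein of the U3 particle, was called, with log2 fold changes of 0.02 and -0.20.

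Small subunit factors carried the lowest value of the set. UTP20, a large scaffold protein of the small subunit processome, had 3.23, 3.16 and 3.34 RPKM in PRKCI_KD, against 5.60, 6.15 and 7.45 RPKM in NT1. The knockdown libraries lay close together and all below the more widely spread controls, with a ratio of mean RPKM of 0.507 and a log2 fold change of -0.79 ± 0.09 (adjusted p = 5.07e-05). HEATR1, another large processome protein, had 5.95, 6.28 and 6.57 RPKM in PRKCI_KD, against 7.37, 7.97 and 9.16 RPKM in NT1, and BYSL, a factor of late small subunit maturation, had 12.7, 12.7 and 13.4 RPKM in PRKCI_KD, against 16.5, 15.1 and 16.3 RPKM in NT1. Both fell with no overlap, HEATR1 with a log2 fold change of -0.33 ± 0.08 (adjusted p = 0.00546) and BYSL with -0.29 ± 0.06 (adjusted p = 0.00182). HEATR1 shares 2095 exonic bases with LGALS8 on the other strand (GENCODE v29).

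Further small subunit members moved little. NOP14, a processome protein, and NAT10, the acetyltransferase of small subunit RNA, fell by 0.19 and 0.18 on the log2 scale (adjusted p = 0.00747 and 0.00387). RCL1, a processome protein related to RNA cyclases, was the only small subunit member that rose, with 4.20, 3.98 and 3.87 RPKM in PRKCI_KD, against 3.17, 3.14 and 3.50 RPKM in NT1. Its log2 fold change was 0.23 ± 0.05 (adjusted p = 0.00341). The other 5, namely UTP15, WDR43, WDR3, RRP12 and DDX10, were not called and lay between -0.08 and 0.21. The highest, RRP12, passed with quantile normalization (0.0193), median-of-ratios scaling (0.0489) or without NT1 replicate 1 (0.0459).

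The large subunit members were called in both directions. GNL2 and GNL3 are nucleolar GTPases, GNL3 being known as nucleostemin. GNL2 had 11.5, 12.4 and 12.4 RPKM in PRKCI_KD, against 9.00, 9.12 and 10.0 RPKM in NT1, and GNL3 had 16.2, 19.0 and 18.1 RPKM in PRKCI_KD, against 10.7, 11.4 and 15.1 RPKM in NT1. Both rose with no overlap, GNL2 with a log2 fold change of 0.33 ± 0.05 (adjusted p = 0.000388) and GNL3 with 0.50 ± 0.11 (adjusted p = 0.00287). PPAN, a factor of early large subunit assembly, rose by 0.35 ± 0.09 (adjusted p = 0.0101), though it shares 1447 exonic bases with the read-through gene PPAN-P2RY11, and the helicase DDX18 rose by 0.26 ± 0.07 (adjusted p = 0.0155). In the other direction, NIP7, known in yeast as a factor of large subunit precursors, fell by 0.33 ± 0.09 (adjusted p = 0.011) and NOP2, a methyltransferase of large subunit RNA, fell by 0.16 ± 0.06 (adjusted p = 0.0412, all log2 ± SE). The call of NOP2 was lost in 9 of 14 alternatives, with an adjusted p of 0.144 under median-of-ratios scaling, and that of DDX18 without PRKCI_KD replicate 3 (0.0521), NT1 replicate 1 (0.0604) or NT1 replicate 2 (0.0538). In GENCODE v29, NIP7 shares 957 exonic bases with COG8 on the other strand, and NOP2 shares 2550 with AC006064.6 on its own strand. The length recovered for NIP7 was 3275 bases, against 4749 exonic bases in that annotation, so its overlap may lie outside the counted part.

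The 3 proteins of the PeBoW complex, which processes the large subunit RNA, were called in opposite directions at the RNA level. PES1 had 14.2, 14.5 and 13.4 RPKM in PRKCI_KD, against 12.3, 12.6 and 12.4 RPKM in NT1, a small rise without overlap (log2 fold change 0.16 ± 0.06, adjusted p = 0.041). Its partner BOP1 averaged 13.2 ± 1.55 RPKM in PRKCI_KD and 18.9 ± 2.55 RPKM in NT1, and the partner WDR12 averaged 3.60 ± 0.139 RPKM in PRKCI_KD and 4.53 ± 0.579 RPKM in NT1 (SD, n = 3 each). Both partners fell, BOP1 with a log2 fold change of -0.49 ± 0.14 (adjusted p = 0.0151) and WDR12 with -0.26 ± 0.07 (adjusted p = 0.0142). These calls were close to the threshold. The call of BOP1 was lost without PRKCI_KD replicate 3 (adjusted p = 0.0558) or NT1 replicate 1 (0.0602), and that of WDR12 when the pair was fitted alone (0.0594). The call of PES1 was lost in 7 of 14 alternatives, 5 of them with a library left out.

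NPM1 and NCL are the abundant multifunctional proteins of the nucleolus, and they went opposite ways. NPM1, a histone and ribosome chaperone, had 258.9, 310.6 and 287.7 RPKM in PRKCI_KD, against 194.8, 209.7 and 243.7 RPKM in NT1, and NCL, an RNA-binding protein of Pol I transcription and processing, had 81.6, 86.4 and 85.7 RPKM in PRKCI_KD, against 95.2, 97.0 and 112.9 RPKM in NT1. The groups of both genes were apart, with a log2 fold change of 0.40 ± 0.09 for NPM1 (adjusted p = 0.0033) and -0.26 ± 0.06 for NCL (adjusted p = 0.00652). The value of NPM1 was 0.13 after quantile normalization (adjusted p = 0.227), and 45 annotated pseudogenes carry its name, so reads shared with these copies leave its level uncertain. MYBBP1A, a MYB-binding protein of ribosomal RNA transcription and processing, had 7.36, 6.29 and 6.23 RPKM in PRKCI_KD, against 9.83, 8.46 and 7.64 RPKM in NT1, a fall with a log2 fold change of -0.34 ± 0.09 (adjusted p = 0.0118). DDX21, a helicase of Pol I transcription and processing, was not called (log2 fold change 0.04).

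**Figure D2:**
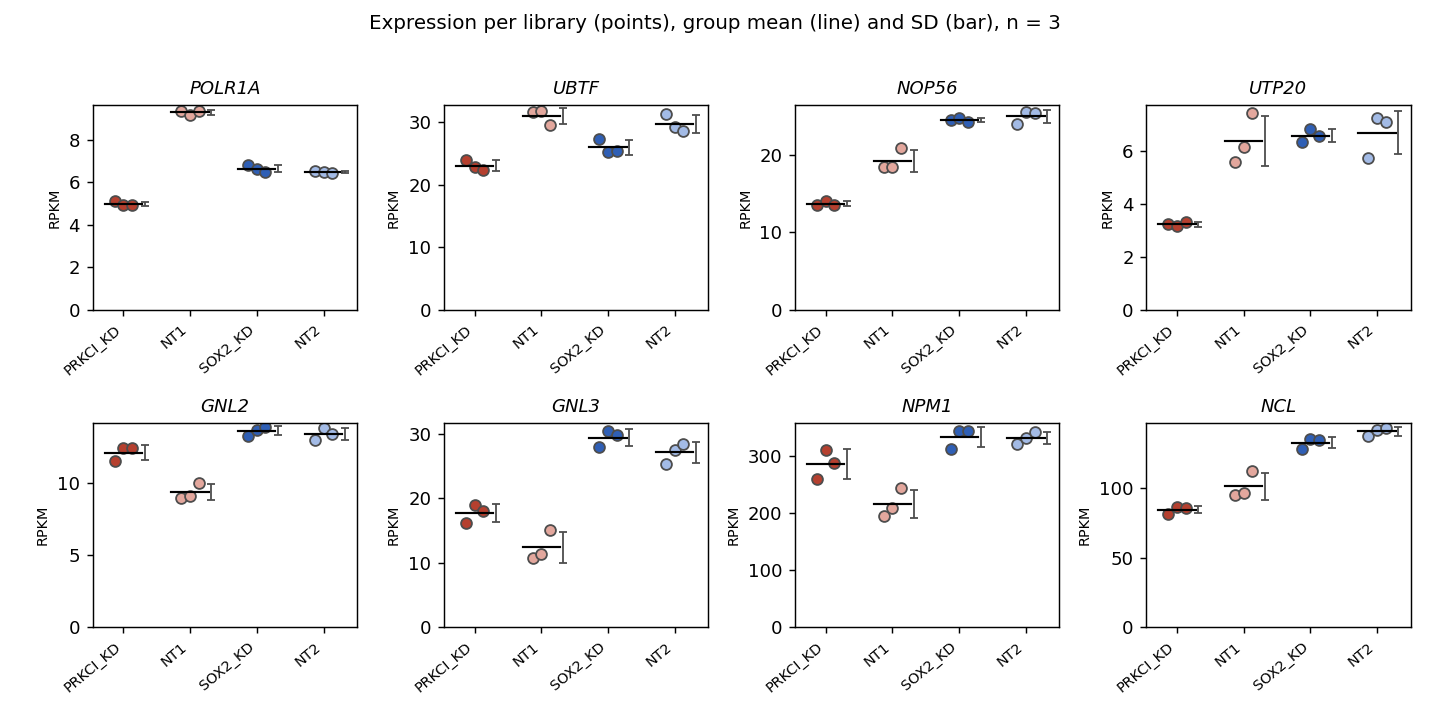
RPKM of 8 members in each library (points), with the group mean (line) and SD (bar, n = 3), from left to right PRKCI_KD, NT1, SOX2_KD and NT2. POLR1A, UBTF, NOP56, UTP20 and NCL are lower in PRKCI_KD than in NT1, GNL2, GNL3 and NPM1 are higher, and none of the 8 was called in SOX2_KD against NT2, where the libraries of UBTF and NCL do not overlap.

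Since members moved both ways, the share of all reads taken by the set was compared as a description. It was 0.381%, 0.410% and 0.403% in PRKCI_KD, against 0.388%, 0.392% and 0.443% in NT1. These overlapped. Without NPM1, the share was 0.282%, 0.291% and 0.292% in PRKCI_KD, against 0.314%, 0.312% and 0.350% in NT1, lower in all 3 knockdown libraries. NPM1, the most abundant member, had risen, so taking it out works by itself towards a lower share in PRKCI_KD. MYC itself averaged 24.6 ± 1.91 RPKM in PRKCI_KD and 17.7 ± 1.21 RPKM in NT1 (SD, n = 3 each), a rise with a log2 fold change of 0.45 ± 0.07 (adjusted p = 0.000338), and its part in the responses was not tested. Among the 14 members with CACGTG in the window, 4 rose and 6 fell, with a median log2 fold change of -0.13, and among the 17 without it 3 rose and 7 fell, with a median of -0.08.

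Beyond the members, 138 further genes of the pathway were listed in 5 groups, and all were tested. These lists were drawn up with earlier results of these data known, so their counts are no independent support for those of the members. In PRKCI_KD against NT1, 58 of them fell (42.0%) and 17 rose (12.3%), beside 26.9% and 18.2% of all genes, with a median log2 fold change of -0.17 beside -0.04 for all genes. The ribosome assembly factor RRS1 had the lowest value, at 17.0 RPKM in PRKCI_KD and 45.8 RPKM in NT1 (log2 fold change -1.37 ± 0.07, adjusted p = 1.81e-07), and was the only one of the 138 past 2-fold. Another large subunit factor, the methyltransferase FTSJ3, followed with -0.61 (adjusted p = 4.21e-07), while RSL24D1 and the export adaptor NMD3 rose by 0.83 and 0.43. In all, 20 of the 50 other large subunit factors fell (40%) and 5 rose (10%).

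In 3 of the remaining lists the share of lower genes was above the 26.9% of all genes, and among other snoRNP genes it was not. Of 46 other small subunit factors, 20 fell (43.5%), with RRP36 at -0.65 and the helicase DHX37 at -0.51, and 5 rose (10.9%), with the endonuclease NOB1 at 0.38 and DIEXF at 0.37. Of 14 genes of the RNA exosome and its cofactors, which trim the precursors, 8 fell (57.1%), led by MPHOSPH6 at -0.70 and EXOSC9 at -0.51, and 2 rose (14.3%), DIS3 at 0.28 and EXOSC7 at 0.19. Of 15 other Pol I subunits and factors, 7 fell (46.7%) and 3 rose (20.0%). POLR2L, a small subunit shared by the polymerases, had a log2 fold change of -0.48 and CD3EAP, a Pol I subunit, -0.36. TAF1D, part of the Pol I promoter selectivity factor, had 0.95 and POLR1D, a subunit shared with RNA polymerase III, 0.63, both higher. Of 13 other snoRNP genes, 3 fell (23.1%), among them the assembly ATPases RUVBL1 and RUVBL2, both at -0.38, and 2 rose (15.4%), PIH1D1 at 0.31 and NHP2L1 at 0.14.

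**Figure D3:**
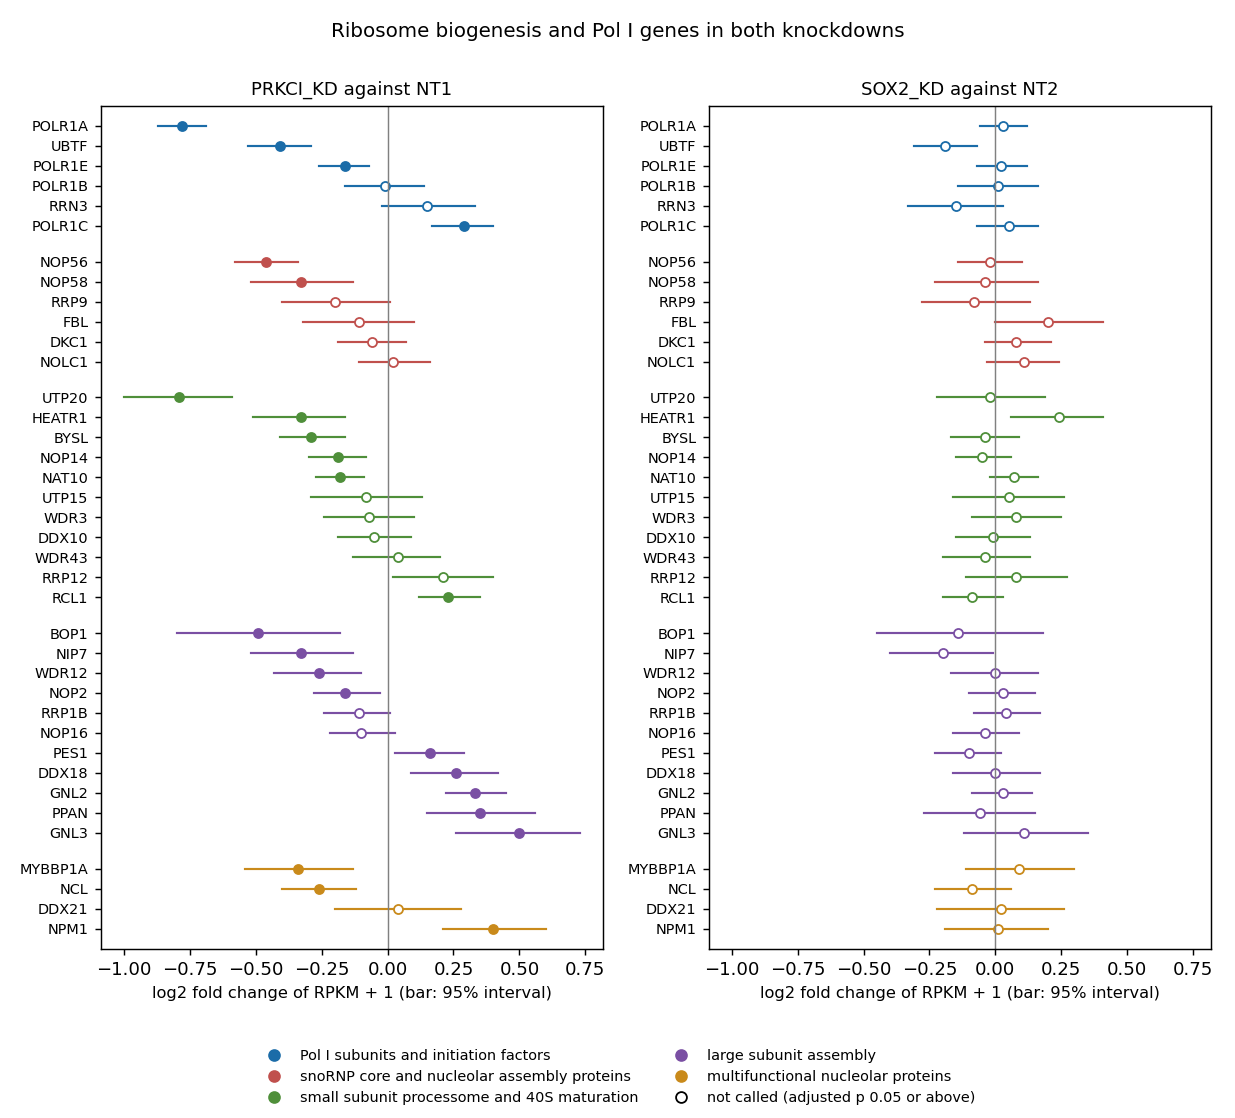
Log2 fold change of RPKM + 1 (point) with its 95% interval (bar) for all 38 members, in PRKCI_KD against NT1 (left) and SOX2_KD against NT2 (right), coloured by role; filled points passed an adjusted p of 0.05. After PRKCI knockdown the values run from -0.79 to 0.50 with 16 lower and 8 higher calls, and after SOX2 knockdown they run from -0.20 to 0.24 with none.

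After SOX2 knockdown, none of the 38 members was called in SOX2_KD against NT2, where 8.22% of all genes were called, 3.6% higher and 4.62% lower. That background was not stable: 1664 genes were called, against 667 without SOX2_KD replicate 3, 681 without SOX2_KD replicate 2, 1072 without SOX2_KD replicate 1, 873 without NT2 replicate 2 and 915 without NT2 replicate 3. At an unadjusted p under 0.05 there were 3 members (limma-trend), and the smallest adjusted p was 0.0593. The members' median log2 fold change was 0.01 beside -0.02 for all genes, and every 95% interval lay between -0.45 and 0.41, so larger changes were outside the intervals. The SD of the 38 log2 fold changes was 0.09, against 0.30 after PRKCI knockdown. Same-numbered libraries of SOX2_KD and NT2 deviated together. SOX2_KD replicate 2 did so almost equally with NT2 replicate 3, so a pairing by number is clear only for replicate 1. With the replicate number as a block 3 members were called, UBTF, HEATR1 and FBL, beside 3513 of all 20244 genes.

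Without the block, these 3 genes were not called and their groups did not overlap. The share of all tested genes without such overlap is not given here, so separation of these groups is a description only. UBTF had 27.4, 25.2 and 25.4 RPKM in SOX2_KD, against 31.3, 29.2 and 28.6 RPKM in NT2, lower in all 3 knockdown libraries, with a log2 fold change of -0.19 ± 0.05 (adjusted p = 0.0593, and 0.0121 with the block). HEATR1 had 19.2, 21.5 and 20.7 RPKM in SOX2_KD, against 15.8, 17.6 and 18.2 RPKM in NT2, and FBL had 108.8, 119.9 and 115.5 RPKM in SOX2_KD, against 95.2, 99.7 and 103.5 RPKM in NT2. All SOX2_KD libraries of both genes were above those of NT2, HEATR1 with a log2 fold change of 0.24 ± 0.08 (adjusted p = 0.0925, and 0.0141 with the block) and FBL with 0.20 ± 0.09 (adjusted p = 0.221, and 0.0323 with the block).

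Several genes called after PRKCI knockdown overlapped their controls here. POLR1A had 6.82, 6.61 and 6.48 RPKM in SOX2_KD, against 6.53, 6.47 and 6.43 RPKM in NT2, and UTP20 had 6.34, 6.83 and 6.59 RPKM in SOX2_KD, against 5.76, 7.24 and 7.12 RPKM in NT2. The groups of both overlapped. NOP56 had 24.5, 24.8 and 24.3 RPKM in SOX2_KD, against 24.0, 25.5 and 25.4 RPKM in NT2, and NOP58 had 27.4, 29.7 and 29.7 RPKM in SOX2_KD, against 27.3, 31.1 and 30.8 RPKM in NT2. These box C/D core genes overlapped as well. GNL2 had 13.3, 13.7 and 13.9 RPKM in SOX2_KD, against 13.0, 13.8 and 13.4 RPKM in NT2, and GNL3 had 27.9, 30.4 and 29.9 RPKM in SOX2_KD, against 25.4, 27.5 and 28.5 RPKM in NT2. Here too the ranges of the groups overlapped.

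Overlap between SOX2_KD and NT2 also held for some of the other members followed library by library. POLR1C had 14.6, 14.9 and 14.0 RPKM in SOX2_KD, against 14.4, 14.3 and 13.3 RPKM in NT2, and RRN3 had 12.8, 14.2 and 13.6 RPKM in SOX2_KD, against 13.8, 15.1 and 16.5 RPKM in NT2. BYSL had 29.3, 27.6 and 28.1 RPKM in SOX2_KD, against 31.2, 28.9 and 27.5 RPKM in NT2, and PES1 had 27.2, 25.0 and 25.0 RPKM in SOX2_KD, against 30.1, 26.7 and 26.5 RPKM in NT2. NPM1 had 312.5, 343.1 and 342.8 RPKM in SOX2_KD, against 320.4, 331.5 and 342.4 RPKM in NT2, and MYBBP1A had 36.2, 32.1 and 33.0 RPKM in SOX2_KD, against 34.3, 29.7 and 30.7 RPKM in NT2. In each of these 6 genes the ranges of the 2 groups overlapped.

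The share of all tested genes without overlap is not given here, so the separations that follow do not show a response to SOX2 knockdown. Shifts without overlap and without a call were also seen, again as a description only, in 6 other members. The largest was that of NIP7, with 14.1, 15.3 and 15.3 RPKM in SOX2_KD, against 16.1, 17.1 and 18.8 RPKM in NT2 (log2 fold change -0.20, adjusted p = 0.199). NOLC1 and NAT10 lay above their controls at 0.11 and 0.07. DKC1 had 53.3, 53.1 and 53.8 RPKM in SOX2_KD, against 50.3, 50.4 and 50.3 RPKM in NT2 (log2 fold change 0.08, adjusted p = 0.44). NCL had 128.4, 135.5 and 135.2 RPKM in SOX2_KD, against 137.6, 142.4 and 143.4 RPKM in NT2 (-0.09, adjusted p = 0.484), and RCL1 had 1.60, 1.66 and 1.73 RPKM in SOX2_KD, against 1.82, 1.92 and 1.75 RPKM in NT2 (-0.09, adjusted p = 0.346). The members together took 0.651%, 0.672% and 0.675% of the reads in SOX2_KD, against 0.651%, 0.664% and 0.674% in NT2. Of the 138 further genes, 1 rose and 6 fell (0.7% and 4.3%, beside 3.6% and 4.62% of all genes): the large subunit ATPase MDN1 rose with a log2 fold change of 0.37, MPHOSPH6 fell with -0.47, EXOSC6 with -0.26, FTSJ3 with -0.22, POLR2F with -0.21, and RRP7A and NOL9 with -0.20 each. FTSJ3 and MPHOSPH6 were lower in both knockdowns, each against its own control.

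The difference between the responses, (PRKCI_KD minus NT1) minus (SOX2_KD minus NT2), was tested directly. It was called for 14 members, 6 more positive and 8 more negative, where 26.2% of all genes were called (11.4% positive, 14.8% negative). The largest were POLR1A, at -0.81 ± 0.06 (adjusted p = 3.34e-06), and UTP20, at -0.78 ± 0.13 (adjusted p = 0.00159). HEATR1, whose estimates lay on opposite sides of 0, differed by -0.57 ± 0.11 (adjusted p = 0.00362), and NOP56 by -0.44 ± 0.08 (adjusted p = 0.00188). On the positive side, PPAN differed by 0.42 (adjusted p = 0.0406), NPM1 by 0.40 (adjusted p = 0.0372), RCL1 by 0.32 (adjusted p = 0.00775) and GNL2 by 0.31 (adjusted p = 0.0112). For UBTF, whose libraries lay below their controls in both knockdowns, the difference of -0.23 missed the threshold (adjusted p = 0.0525) and passed it in 6 of 19 alternatives, among them quantile normalization (0.0145), a level filter of 2 RPKM (0.0496), and the fits without PRKCI_KD replicate 1 (0.0497), NT1 replicate 3 (0.0295) or NT2 replicate 1 (0.0287). Of these calls, 5 of 8 negative and 2 of 6 positive were made in all 19 alternatives: POLR1A, NOP56, UTP20, HEATR1 and NAT10 among the negative, RCL1 and GNL2 among the positive. The count of 14 lay between 7 and 16 with a library left out. It was 7 without SOX2_KD replicate 3, 8 without PRKCI_KD replicate 3 or NT1 replicate 2, and 9 without PRKCI_KD replicate 2, NT1 replicate 1, SOX2_KD replicate 1 or 2, or NT2 replicate 2 or 3.

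The largest changes in the set were not between a knockdown and its control but between the non-targeting controls. In NT2 against NT1, 29 members were higher and 5 lower, with a median log2 fold change of 0.69 beside -0.05 for all genes, and 12 members were at least 2-fold higher. Among all genes 78.2% were called, 36.2% higher and 42.0% lower, against 76.3% of the members higher and 13.2% lower. The median of the members' mean levels was 21.1 RPKM in NT2 and 12.4 RPKM in NT1, and their share of the reads was 0.651% to 0.674% in NT2 and 0.388% to 0.443% in NT1. The labels give both groups as non-targeting H1299 spheroids. They were run on different flow cells, so an effect of the flow cell and another difference between the controls cannot be told apart. The p-values of NT2 against NT1 (limma-trend) measure only the spread between libraries within the groups.

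The widest gap was that of MYBBP1A, at 31.6 ± 2.41 RPKM in NT2 and 8.64 ± 1.11 RPKM in NT1 (SD, n = 3 each), a ratio of 3.65 and a log2 fold change of 1.76 ± 0.09 (adjusted p = 7.67e-09). RRP12, whose yeast counterpart acts in the export of both subunits, followed at 19.5 ± 2.03 RPKM in NT2 and 5.52 ± 0.444 RPKM in NT1, DDX21 at 112.1 ± 9.58 RPKM in NT2 and 36.9 ± 6.19 RPKM in NT1, and NOP2 at 48.1 ± 2.04 RPKM in NT2 and 16.0 ± 0.636 RPKM in NT1 (SD, n = 3 each). Each of these was over 3-fold higher in NT2. The box H/ACA enzyme DKC1 had a log2 fold change of 1.17 and the chaperone NOLC1 1.31. All 4 multifunctional genes and 10 of 11 large subunit genes were higher in NT2, the exception being RRP1B, a large subunit processing factor that was not called (-0.08).

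The Pol I machinery again was mixed. POLR1A was lower in NT2, at 6.48 ± 0.0466 RPKM in NT2 and 9.29 ± 0.122 RPKM in NT1 (SD, n = 3 each; log2 fold change -0.46 ± 0.04, adjusted p = 6.8e-07), while POLR1C, POLR1E and RRN3 were higher by 0.67, 0.69 and 0.64. POLR1B and UBTF were not called (-0.03 and -0.06), UBTF passing with quantile normalization (adjusted p = 0.0163), and UTP20, so low in PRKCI_KD, was also not called here (0.06). The other members lower in NT2 were RCL1 at -0.59, NAT10 at -0.45, NOP14 at -0.25 and FBL at -0.27. The call of FBL (adjusted p = 0.0217) was lost without NT1 replicate 3 (0.0885) or NT2 replicate 1 (0.0658) and with median-of-ratios scaling (0.059).

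The gap between the controls was shared by the knockdowns of each pair. In 29 members, all 6 libraries of SOX2_KD and NT2 were above all 6 of PRKCI_KD and NT1, and in RCL1 and NAT10 all 6 were below; among all genes tested such separation was found in 27.8% and 33.8%. MYC had a mean of 52.2 RPKM in NT2 and 17.7 RPKM in NT1 (log2 fold change 1.51 ± 0.07, adjusted p = 2.51e-09), and its part in the difference was not tested. Of the 14 members with CACGTG, 9 were higher and 4 lower in NT2, with a median of 0.96. Of the 17 without it, 14 were higher and 1 lower, with a median of 0.62. Of the 138 further genes, 90 were higher and 26 lower in NT2, with a median of 0.42.

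**Figure D4:**
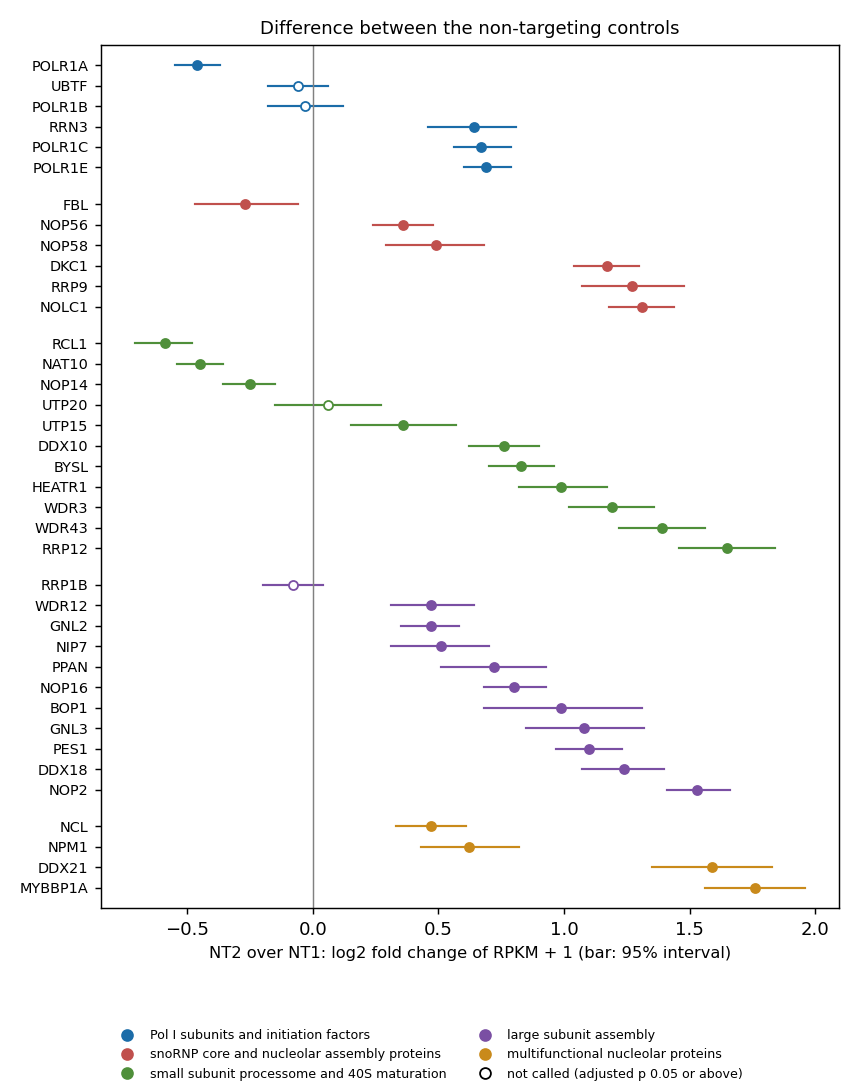
Log2 fold change of RPKM + 1 in NT2 over NT1 (point) with its 95% interval (bar) for the 38 members, coloured by role; filled points passed an adjusted p of 0.05. There are 29 members higher in NT2, up to 1.76 for MYBBP1A, and 5 lower, down to -0.59 for RCL1.

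Several members also house small nucleolar RNAs, the guides of ribosomal RNA modification, within their own genes. By GENCODE v29, 8 of 38 members (21.1%) host a snoRNA gene, against 1.37% of 19969 protein-coding genes, and 14 of the 26 hosted snoRNA genes had enough reads to be tested. SNORD86, within NOP56, had 29.8, 27.4 and 31.0 RPKM in PRKCI_KD, against 49.9, 51.6 and 67.6 RPKM in NT1. It fell by a log2 fold change of -0.90 ± 0.10 (adjusted p = 2.6e-05), as its host did, and was the only one of the 14 called lower. Neither of the other measured snoRNAs of NOP56 was called, SNORD110 at 0.30 and SNORD57 at 0.41. Of all genes tested, 26.9% were called lower and 18.2% higher in this comparison, and the counts of snoRNA calls are to be read beside these shares. Called higher in PRKCI_KD against NT1 were 3, each at a low level: SNORA36A (0.85 ± 0.16, adjusted p = 0.00134) and SNORA56 (0.68 ± 0.19, adjusted p = 0.0114) within DKC1, which was not called, and SNORD20 (0.61 ± 0.22, adjusted p = 0.0404) within NCL, which fell. SNORA36A had 1.12, 1.43 and 1.55 RPKM in PRKCI_KD, against 0.253, 0.238 and 0.46 RPKM in NT1, where every value was under the filter of 0.5 RPKM. The groups of SNORD20 overlapped, with 0.923, 2.47 and 0.706 RPKM in PRKCI_KD, against 0.311, 0.39 and 0.756 RPKM in NT1. SNORA56, within DKC1, had 14.7, 13.9 and 13.3 RPKM in SOX2_KD, against 4.78, 4.64 and 3.59 RPKM in NT2, a rise of 1.49 ± 0.19 (log2 ± SE; adjusted p = 0.00121) in a comparison where DKC1 itself had 0.08. SNORD105, within PPAN, fell there by 0.89 ± 0.21 (adjusted p = 0.0245) at a low level, while PPAN was not called. SNORD86, SNORD110, SNORD57, SNORA36A and SNORA56 overlap annotated exons of their hosts. The library kit selects polyadenylated RNA, so reads of host transcripts and of these small RNAs cannot be told apart.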

How the data were processed

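RNA from 12 libraries was sequenced over 101 bases, per the labels' protocols, from 120 ng of total RNA. The values used were RPKM, which the authors deposited in 1 table; TopHat2 2.1, Bowtie 1.1.2, featureCounts and the build GRCh38 are named in the submitters' processing notes. The annotation and the strand setting of the counting were not stated in those sources. Of 64253 entries, 18563 at 0 in all libraries were dropped, and 1397 with a repeated name and 25 with a date as a name were left out. Read totals were recovered from the values as common divisors, and all 38 members gave whole reads within 0.001 reads.

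Tests were limma-trend (limma 3.58.1, R 4.3.3) on log2(RPKM + 1), with 4 group means over 12 libraries and 8 residual degrees of freedom, for the 20244 genes that reached 0.5 RPKM in 3 or more libraries, and p-values were adjusted by Benjamini-Hochberg over all of them (threshold 0.05). Fold changes on this scale understate those of low genes. With 3 libraries against 3, an exact permutation test cannot go below p = 0.1. Counting intervals were not needed, since the libraries' spread enters the tests. The alternatives were pseudocounts of 0.1 and 5, no level filter or 2 RPKM, median-of-ratios scaling, quantile normalization, the compared groups alone, the replicate number as a block, and each library left out. Same-numbered libraries of SOX2_KD and NT2, numbered in the titles, deviated from their group means together (correlations 0.502, 0.237 and 0.237). With different numbers, SOX2_KD replicate 2 and NT2 replicate 3 had 0.234, and SOX2_KD replicate 3 and NT2 replicate 2 had 0.125. The rest were negative, from -0.268 to -0.387. A pairing by number is thus clear only for replicate 1.

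The members and lists were chosen with earlier results of these data known. Values per library are given for the 2 members of each role with the smallest adjusted p in each knockdown comparison and in their difference, for members alone in their direction, and always for POLR1A, UBTF, RRN3, NPM1, NCL, FBL and DKC1. Of the further genes, the 2 highest and 2 lowest called per list and knockdown are named. Other members were named after their values were seen.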

Additional observations from a re-analysis of the deposited data

Results flagged for a closer look

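In 14 members the response to PRKCI knockdown was called different from the response to SOX2 knockdown. The difference was tested directly (limma-trend, adjusted over all genes, n = 3 libraries in each group). Called were 15.8% of the members as positive and 21.1% as negative, beside 11.4% and 14.8% of all genes tested. Only 5 of 8 negative and 2 of 6 positive calls were made in all 19 alternatives. The call of BYSL was lost in 13 of them, and those of POLR1E and NPM1 in 11 each. The difference was negative for POLR1A (-0.81), UTP20 (-0.78), HEATR1 (-0.57), NOP56 (-0.44), MYBBP1A (-0.43), BYSL (-0.25), NAT10 (-0.25) and POLR1E (-0.19). It was positive for PPAN (0.42), NPM1 (0.40), RCL1 (0.32), GNL2 (0.31), PES1 (0.27) and POLR1C (0.24). All values are log2 differences of PRKCI_KD minus NT1 less SOX2_KD minus NT2. Groups of 3 were not examined for outlying libraries.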

How the results depend on the processing

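Of the calls in PRKCI_KD against NT1, 12 of 16 lower and 5 of 8 higher were made in all 14 alternatives, and of those in NT2 against NT1, 4 of 5 lower and 29 of 29 higher. No call turned its direction. With a library left out, 21 to 23 members were called in PRKCI_KD against NT1 (6 to 8 higher, 14 to 16 lower), 0 in SOX2_KD against NT2, 33 to 34 in NT2 against NT1, and 7 to 16 in the difference (2 to 8 higher, 5 to 8 lower). Without the level filter 9 members differed between the responses, 3 of them higher. With the replicate block, SOX2_KD against NT2 had 3 calls (2 higher, 1 lower) and the difference 23 (14 lower); PRKCI_KD against NT1 had 10 higher and 16 lower, but its same-numbered libraries did not all deviate together (correlations 0.487, -0.113 and 0.344). With the block, RRN3 (adjusted p = 0.0326) and RRP12 (0.00188) were called in PRKCI_KD against NT1, and UBTF (0.00863) in the difference. The block changed no other count by over 1.5 times among the members. Among all genes, SOX2_KD against NT2 had 729 higher and 935 lower calls, 923 and 744 with median-of-ratios scaling, 770 and 591 with quantile normalization, 1314 and 2199 with the block, and 667 to 1241 calls in all with a library of that pair left out. The cause of these shifts was not tested. RNA levels do not give rates of ribosome production. Reads shared with other genes are a limit for the 6 members with exon overlap on the same strand and the 14 with overlap on the other strand. They are also a limit for the 9 with named pseudogenes. Among all these members are NPM1, DDX18, NOP56, NIP7, RRN3, HEATR1 and WDR3. The overlaps are those of GENCODE v29, whose exon lengths were within 1 base of the recovered ones for 34 of 38 members.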
